A study of Caenorhabditis elegans with 2 samples.

Results

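The genes described here encode 8 proteins of the centromere and kinetochore of Caenorhabditis elegans: hcp-3, hcp-4, knl-2, knl-1, knl-3, ndc-80, him-10 and hcp-1. They are 8 of 19973 protein-coding genes on the nuclear chromosomes. They were chosen from the known centromere and kinetochore genes by name, with peak signals of these data already known, so the count of members with a peak is a description and was not tested. The values came from chromatin immunoprecipitation followed by sequencing (ChIP-seq) on whole L4 larvae, aged 47.5 hours, grown from synchronized L1 larvae that had been starved after bleaching. All animals were of strain RW12291, with the allele st12291, in which CRISPR had placed TY1, EGFP and 3xFLAG tags at the endogenous gene Y48G9A.11 on chromosome III, and an antibody against GFP was used for the precipitation. The 2 biological replicates form 1 group, so no genotype, age or treatment was compared. Animals without the tag were not analysed here, so recovery through the tagged protein and recovery without it cannot be told apart, nor can the tissue a peak came from.

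The kinetochore is the protein assembly that joins each chromosome to spindle microtubules when a cell divides. C. elegans has holocentric chromosomes, on which centromeric chromatin lies along the whole length and not at a single locus. HCP-3 is the worm CENP-A, the histone H3 variant that marks centromeric chromatin, KNL-2 is needed to load it and HCP-4, the worm CENP-C, binds above it. KNL-1, the Mis12 complex with KNL-3, and the NDC80 complex with NDC-80 and HIM-10 form the core that binds microtubules, and HCP-1, related to CENP-F, lies in the outer kinetochore and brings in the microtubule regulator CLS-2. The peaks described below were at the genes for these proteins. They say nothing of where on the chromosomes the centromeric proteins themselves lay.

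The sequences under the strongest peaks are shown first, because the short motif TTTGAA recurred in the thresholded leading peaks of all 5 members that had one. It was also in 19.7% of all thresholded peaks from both replicates together. Members and motifs were chosen with earlier results of these data known. Each run is a summit with the 50 bases on each side of it, read 5' to 3' on the strand of the gene from the RefSeq genome of build WBcel235. The first 4 lie under peaks that passed the authors' threshold (hcp-3, knl-1, knl-3 and hcp-1), and the last 2 under the strongest candidates of genes without such a peak (ndc-80 and him-10). Capitals mark matches on either strand to any of 7 motifs: the CHR element core TTTGAA, the E2F-like core TTCGCGC, the E2F consensus core TTCCCGC, the TATA box core TATAAA, the GAGA repeat GAGAGA, the GC box core GGGCGG and the RNA polymerase III B box core GTTCNANNC.
hcp-3 (chrIII:9617081-9617181, minus strand): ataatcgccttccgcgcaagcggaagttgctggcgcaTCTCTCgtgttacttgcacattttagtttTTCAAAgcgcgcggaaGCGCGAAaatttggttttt
knl-1 (chrIII:8250423-8250523, plus strand): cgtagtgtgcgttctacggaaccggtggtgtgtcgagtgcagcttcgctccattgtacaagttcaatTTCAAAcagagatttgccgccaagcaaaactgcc
knl-3 (chrV:1868773-1868873, plus strand): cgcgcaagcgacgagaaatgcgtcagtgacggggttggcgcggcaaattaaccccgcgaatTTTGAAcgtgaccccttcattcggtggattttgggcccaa
hcp-1 (chrV:6593849-6593949, plus strand): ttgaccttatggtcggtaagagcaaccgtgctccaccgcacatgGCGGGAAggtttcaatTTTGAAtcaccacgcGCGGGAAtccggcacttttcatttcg
ndc-80 (chrIV:10085821-10085921, plus strand): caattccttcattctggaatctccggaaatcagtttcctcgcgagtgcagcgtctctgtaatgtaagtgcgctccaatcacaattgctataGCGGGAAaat
him-10 (chrIII:5802354-5802454, plus strand): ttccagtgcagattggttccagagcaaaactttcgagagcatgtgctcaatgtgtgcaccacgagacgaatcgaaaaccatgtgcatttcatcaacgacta

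Peaks passed the threshold at 5 of the 8 genes, and every one lay upstream of the gene and not in its body. In the main list, the authors' thresholded list of 2228 peaks from both replicates together, a summit lay from -1000 to +200 bp of the 5' end of hcp-3, hcp-4, knl-1, knl-3 and hcp-1. That is 5 of 8 members, while 6.13% of all protein-coding genes had a main summit in this window. With the gene body added, the members' count was again 5 of 8 and the share of all protein-coding genes was 9.29%. No member had a thresholded summit in its body. The authors' conservative list also held a peak at these 5 genes, against 6.01% of protein-coding genes. All 5 members had a peak in the list of replicate 1 (4.3% of protein-coding genes), and 4 had one in that of replicate 2 (4.03%), where knl-1 was missing. Main, replicate 1 and replicate 2 lists all held a peak at hcp-3, hcp-4, knl-3 and hcp-1, which is 4 of 8 members beside 3.12% of protein-coding genes. Since the members were chosen with these peaks known, nothing is read from the counts.

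**Figure D1:**
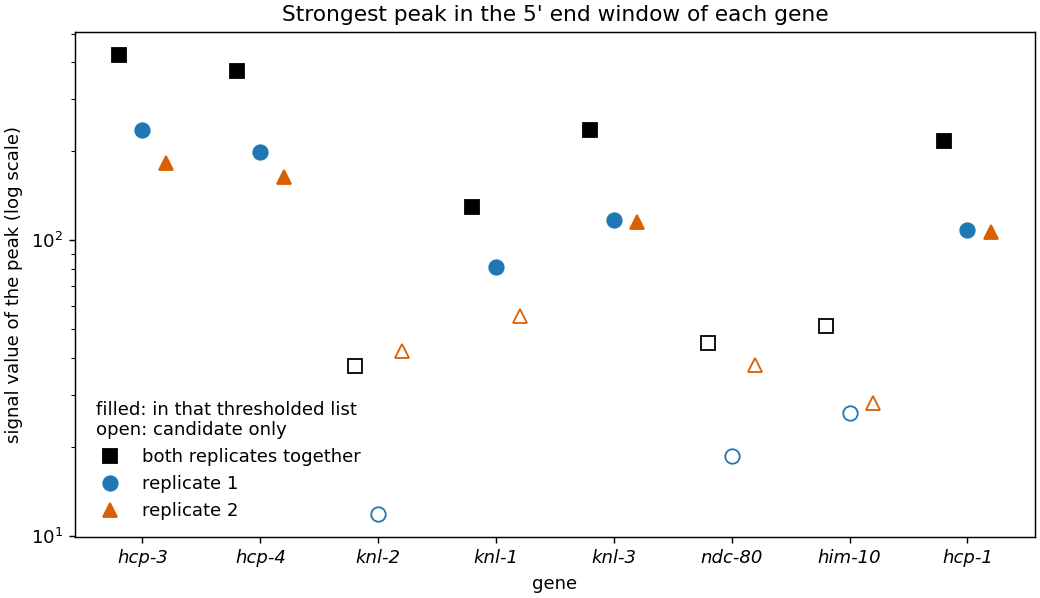
Signal value (log scale) of the strongest peak in the 5' end window of each member, for both replicates together and for each replicate under that peak. Filled symbols passed the threshold of their own list and open symbols are candidates only. The 5 genes with a main peak sit between 129.5 and 422.4 in the pooled values, and the other 3 between 37.5 and 51.4.

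The centromeric histone gene had the strongest peak of the members. At hcp-3 (WBGene00001831, chromosome III, 9615306 to 9616470, minus strand) the pooled signal value, the authors' score of a peak relative to a control, was 422.4, with its summit at position 9617131, -661 bp from the 5' end. Replicate 1 gave 236.1 there and replicate 2 gave 182.2, a mean of 209 ± 38.2 (SD, n = 2). Both values passed their thresholds, and the summits of the replicates were at -649 and -661 bp. In the main list this peak ranked 146, above 93.4% of the peaks. It lay outside any annotated gene and in the window of no other one; the nearest other protein-coding 5' end was that of hlh-11, which encodes a bHLH transcription factor, with the summit at -2580 bp from it.

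The CENP-C gene hcp-4 had a similar value but shared its peak. At hcp-4 (WBGene00001832, chromosome I, 3862833 to 3865938, minus strand) the signal was 374.7 in the pooled list, 198.1 in replicate 1 and 164.0 in replicate 2 (mean 181 ± 24.1, SD, n = 2), with the summit at -710 bp. The replicates differed in the same direction as at hcp-3, and both passed. This summit was also at -893 bp from the 5' end of pgk-1, which encodes the glycolytic enzyme phosphoglycerate kinase, so that the divergent genes hcp-4 and pgk-1 have 1 peak between them. A second main peak at hcp-4, with a signal of 19.96 and its summit at -909 bp, overlapped the first and was above only 2.92% of the main list. The third member of this group, knl-2 (WBGene00019432, chromosome I, 6460878 to 6464286, plus strand), whose product loads CENP-A, had no thresholded peak. Its strongest window candidate had a pooled signal of 37.5 at -492 bp. Under it the replicates gave 11.9 and 42.1, with summits at -247 and -518 bp, so they did not mark the same place. A candidate of 57.5 lay in its body at 639 bp from the 5' end.

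In the core that binds microtubules, knl-3 and knl-1 had peaks and the NDC80 complex genes ndc-80 and him-10 did not. At knl-3 (WBGene00020392, chromosome V, 1869213 to 1870558, plus strand), a Mis12 complex gene, the pooled signal was 236.0 with the summit at -390 bp. The replicates gave 116.9 and 115.4 (mean 116 ± 1.07, SD, n = 2), and both passed. The summit fell in an untranslated or other non-coding exon of T10B5.3, a gene on the opposite strand, at 959 bp from the 5' end of T10B5.3.

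The scaffold gene knl-1 (WBGene00002231, chromosome III, 8250632 to 8253943, plus strand) had the weakest of the members' leading peaks, with a pooled signal of 129.5 at -159 bp. Replicate 1 gave 81.3 and replicate 2 gave 55.6 (mean 68.4 ± 18.2, SD, n = 2), and the second did not pass its threshold. Among the members with a main peak, knl-1 had the highest irreproducible discovery rate (IDR), 0.00213 in the pooled ranked list. In the other pooled ranked list, which holds every main peak unchanged, its IDR was 0.00158. The threshold was 0.01, and the peak stood above 47.4% of the main list. The summit was 276 bp past the 3' end of C02F5.2 on the same strand and at -992 bp from the 5' end of C02F5.10, at the edge of that gene's window.

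The next member by signal, well short of the threshold, was him-10 (WBGene00001869, chromosome III, 5803260 to 5805112, plus strand), the worm Nuf2 gene, with 4 window candidates and none thresholded. The strongest had a pooled signal of 51.4 at -856 bp, with an IDR of 0.257, and the replicates gave 26.1 and 28.1 under it. In replicate 1 alone the strongest window candidate was another, 34.3 at -211 bp, and replicate 2 had 7.2 near that place, at -260 bp. For ndc-80 (WBGene00003576, chromosome IV, 10086137 to 10088437, plus strand) the single window candidate had a signal of 45.1 at -266 bp, with an IDR of 0.474. There the replicates gave 18.7 and 37.8 with summits at -228 and -229 bp, so the place was shared but the value in replicate 2 was 2.02 times that in replicate 1. Absence from a thresholded list does not show that a gene lacked signal, and depth per sample is unknown.

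The outer kinetochore gene hcp-1 (WBGene00001829, chromosome V, 6594194 to 6599208, plus strand) had a peak like that of knl-3. Its pooled signal was 216.0 with the summit at -295 bp, and the replicates gave 108.0 and 107.0 (mean 107 ± 0.731, SD, n = 2), both past their thresholds. The peak lay outside any gene, 155 bp past the 3' end of ZK1055.2 on the same strand, and in no other gene's window. With 10 candidates along its window and body, hcp-1 had more than any other member, but it is also the longest of these genes. Per kb it had 1.66 candidates, below hcp-3 (2.77), him-10 (2.10) and hcp-4 (1.95). Its 9 candidates outside the main list had signals of only 2.8 to 60.2.

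**Figure D2:**
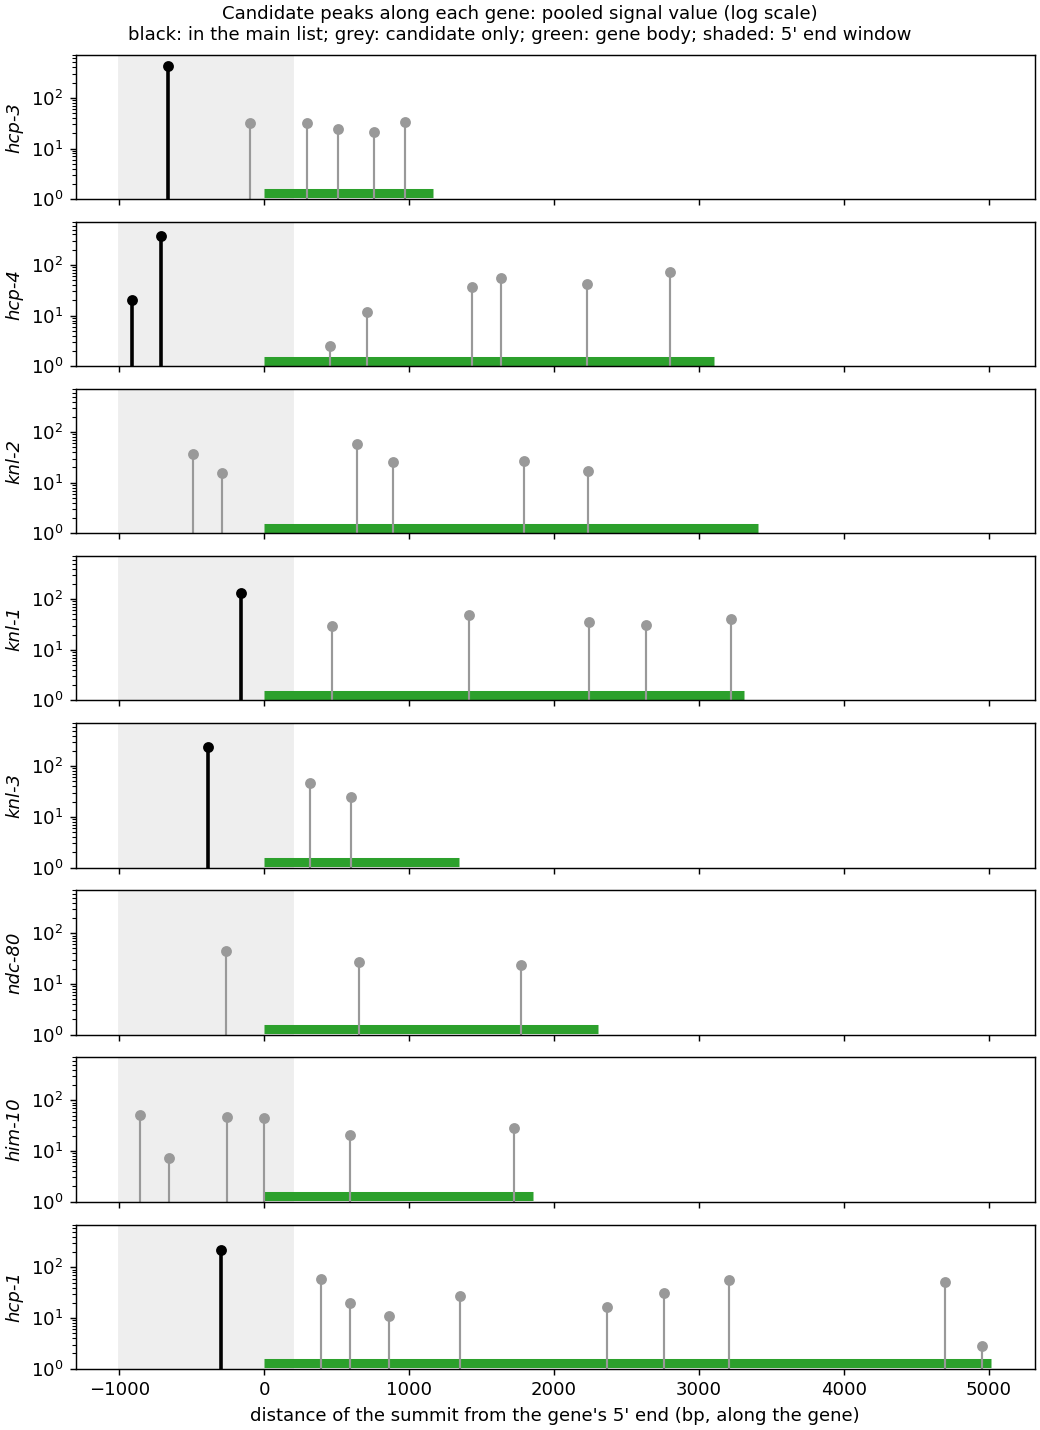
Pooled signal value (log scale) of every candidate peak against the distance of its summit from the gene's 5' end in bp, 1 panel per member. Black stems are in the main list and all lie upstream of the 5' end, within the shaded window from -1000 to +200 bp; grey stems along the gene bodies (green) are candidates only.

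The members' candidates fell into leading peaks and a low remainder, apart from the second main peak of hcp-4, which was thresholded but as low (19.96). The pooled ranked list held 48 candidates in the windows and bodies of the 8 genes, and 42 of them were not in the main list. These 42 had a median signal of 31.0 and a range from 2.5 to 71.7, while the median of all 91262 such candidates in the series was 30.9. The highest, 71.7, was in the body of hcp-4, and the lowest leading peak, that of knl-1, had 129.5. Ordered by their strongest window signal, the members ran hcp-3, hcp-4, knl-3, hcp-1, knl-1, him-10, ndc-80 and knl-2. The value of hcp-3 was above that of hcp-4 in both replicates, by less than the gap between the replicates of hcp-3; both genes were lower in replicate 2. The values of knl-3 and hcp-1 were farther apart in each replicate than the replicates of either gene, and those of him-10, ndc-80 and knl-2 overlapped between replicates. Among the 12212 protein-coding genes with a window candidate, where the median was 44.7, hcp-3 stood above 98.7%, hcp-4 above 98.3%, knl-3 above 97.0%, hcp-1 above 96.6% and knl-1 above 93.2%. In the same order him-10 stood above 60.2%, ndc-80 above 50.6% and knl-2 above 37.5%.

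**Figure D3:**
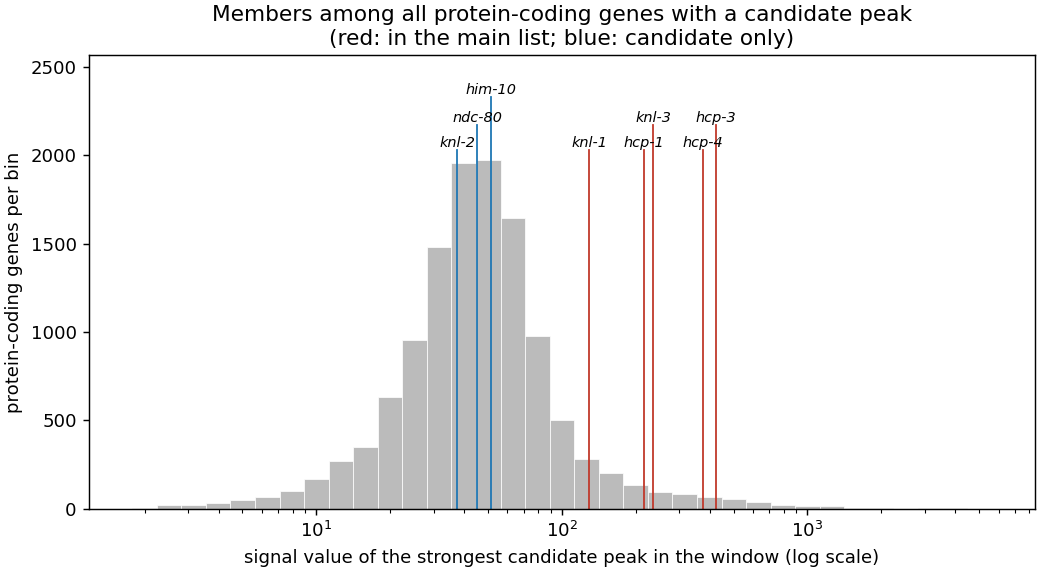
Number of protein-coding genes by the signal value of their strongest window candidate (log scale), with the members as vertical lines. The 3 members without a main peak lie near the median of 44.7, and the 5 with one lie in the upper tail from 129.5 to 422.4.

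The genes next to the members by signal were named by a rule and not by function. Among the 1225 protein-coding genes with a main window peak, by pooled signal, hcp-3 stood between usip-1 and srd-4 (426.6) and F25H9.7 and F25H9.6 (418.8). The neighbours of hcp-4 were rpt-2 with aps-1 (377.9) and C47E8.4 (372.8), and those of knl-3 were mrpl-23 (236.3) and smn-1 with klp-16 (234.6). For hcp-1 they were mom-1 with lev-9 (216.1) and pdtf-1 with T26A8.4 (215.9), and for knl-1 they were ztf-28 (129.6) and F10B5.2 (128.9). This measure of likeness rests on a single pooled value per gene.

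Replicate agreement was close for 2 of the members and looser for the others. The ratio of replicate 2 to replicate 1 was 0.987 at knl-3 and 0.990 at hcp-1, 0.828 at hcp-4, 0.771 at hcp-3 and 0.684 at knl-1. Over 2186 main peaks with a candidate in both replicates, the log2 of this ratio had a median of 0.07 and an SD of 0.51, with a 5th percentile of -0.73 and a 95th percentile of 0.89. The log2 ratios of these 5 members lay between those percentiles, from -0.55 at knl-1 to -0.01 at hcp-1. The candidates of knl-2, with a log2 ratio of 1.82, and of ndc-80 lay above the 95th percentile, and that of him-10 (0.10) between the percentiles. At the 5 members the replicates' values added up to between 0.966 and 1.06 times the pooled value.

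**Figure D4:**
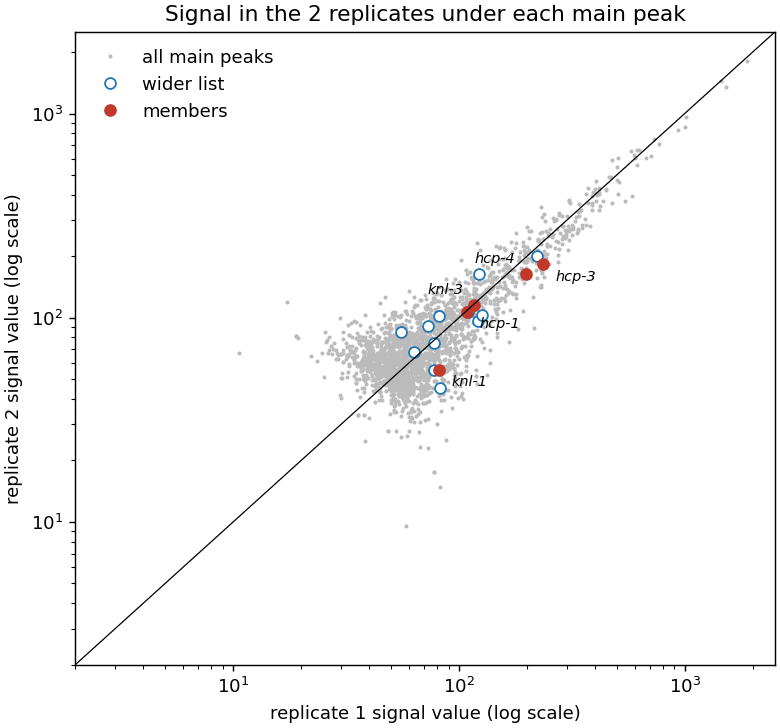
Signal value of replicate 2 against replicate 1 (both log scales) under each main peak, with the line of equal values. The 5 members with a main peak (red) lie on or below the line, with ratios from 0.684 at knl-1 to 0.990 at hcp-1, inside the spread of all main peaks (grey). Blue circles are the other wider list genes with a main peak.

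The window, most of which is upstream, largely set on which side of the 5' end a member's peak could lie. All 5 summits were upstream of their gene, at a median of -390 bp; among the 1225 protein-coding genes with a main window peak, 90% were upstream and the median distance was -247 bp. Only 2 of the 5 peaks were also in the window of another protein-coding gene (40%, against 49.2% of all such genes), those of hcp-4 and knl-1. No tRNA gene was near: the closest was 34.1 kb away, at hcp-1. The peaks of hcp-3 and hcp-4 were 174 and 171 bp wide, and the other 3 had the width of 324 bp that 84.0% of main peaks have. Width went with signal in the main list, where the median was 355.0 for narrower peaks and 121.6 at 324 bp.

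The motif TTTGAA, the core of the cell cycle genes homology region (CHR) that the DREAM complex binds at cell cycle genes, was present within 50 bases of all 5 summits. It ran from 16 to 21 bp beyond the summit at hcp-3, from 17 to 22 at knl-1, from 11 to 16 at knl-3 and from 10 to 15 at hcp-1, counted along each gene, and from -4 to 1 at hcp-4. On either strand, 19.7% of the 2228 main peaks held it in the same length, 20.3% of the 1922 not within 200 bp of a tRNA gene, and 23.2% of the 985 in the window of a protein-coding gene. Its centre was at most 19.5 bp from the summit in the 5 members, and within 20 bp in 7.85% of all main peaks, a limit set after seeing the members. Members and motif were chosen with earlier results of these data known, so nothing is read from its presence at all 5. The strongest candidates of the 3 other members did not have TTTGAA in this stretch. In the 300 bases from 250 before to 50 after the 5' end, TTTGAA was present at all 8 members and in 62.5% of all promoters. In that stretch it does not separate the genes with a peak. The stretch leaves out the summits of hcp-3, hcp-4, knl-3 and hcp-1, so the matches there are other copies of the motif.

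Other motifs were at single members. The E2F-like core TTCGCGC, of the kind bound by the E2F factors that act on cell cycle genes, was at hcp-3 from 32 to 38 bp beyond the summit and in 4.22% of main peaks. The E2F consensus core TTCCCGC was at hcp-1, once from -6 to 0 bp and once from 25 to 31 bp, and in 3.59% of main peaks; it was also at the candidate of ndc-80. Both TTTGAA and an E2F core were present at 2 members, hcp-3 and hcp-1, and in 2.51% of main peaks. The GAGA repeat was at hcp-3 (8.53% of main peaks). The TATA core (4.76%), the GC box core (4.94%) and the B box core (14.2%) were at none of the 5. The GC box core was at the candidate of knl-2, from -1 to 4 bp. A match is not a binding site, and no difference in these shares was tested. The GC content of the same stretch ran from 45.5% at hcp-4 to 56.4% at knl-3, against a median of 46.5% over all main peaks.

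Other genes of centromere, kinetochore and chromosome segregation were read from a list of 62 genes that includes the members. Of the 54 others, 12 (22.2%) had a main summit in the window, beside 6.13% of all protein-coding genes; 10 had one in the list of replicate 1 and 8 in that of replicate 2. This list too was written with results of these data known, and its counts were not tested. A further 2 had a main summit only in the body: klp-7, a kinesin that depolymerizes microtubules (100.5), and the condensin gene mix-1 (271.2, in an intron). Both summits were also in the 5' end window of another gene, K11D9.7 for klp-7 and M106.6 for mix-1.

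Near the centromere, lin-53, a histone chaperone gene, had a pooled signal of 132.2 (55.4 in replicate 1, not past its threshold, and 85.3 in replicate 2) at a peak shared with nra-2. In the core complexes, kbp-4, the worm Spc24 gene, had 132.3, from a peak also in the windows of par-2 and rab-18. Replicate 1 gave 77.7 there and replicate 2 gave 55.3, which did not pass its threshold. The summit was at -140 bp from kbp-4 and at 14 bp from the 5' end of rab-18, in an exon of rab-18. Of the NDC80 complex genes, kbp-4 alone had a main peak: kbp-3, the worm Spc25 gene, had a candidate of 52.4, and ndc-80 and him-10 are given above. The outer kinetochore and corona held 4 further genes with a main peak: ska-3 (286.8), at a peak shared with the ribosomal protein gene rps-12, the ZW10 gene czw-1 (227.6), the CLASP gene cls-2 (222.4), whose summit was at -1000 bp, the very edge of the window, and rod-1 (149.4). With hcp-1, that is 5 of 9 genes of this group, beside 6.13% of all protein-coding genes. The list of each replicate gave 4 of 9, beside 4.3% of all protein-coding genes in replicate 1 and 4.03% in replicate 2. In those lists the cls-2 summits were at -1012 and -1014 bp, outside the window. The closest relative of hcp-1, hcp-2, had a candidate of 20.6 only.

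The other groups each had from 0 to 2 genes with a main window peak, beside 6.13% of all protein-coding genes. The groups were small, and no difference between them was tested. In the spindle checkpoint the gene with such a peak was mdf-2, the worm Mad2 (167.6), of 5 genes. The highest candidate of the list without a main peak was at bub-1 (99.4). None of the 4 chromosomal passenger genes and none of the 2 motor genes had a main window peak. Among 8 condensin genes, the condensin II genes kle-2 (446.8, higher than hcp-3) and hcp-6 (163.9) had one. Of 7 cohesin and separase genes it was smc-3 (123.3), and of 12 genes of the anaphase-promoting complex they were emb-27 (234.2) and such-1 (120.0). Peaks of 11 of the 12 were also in the window of another protein-coding gene, against 2 of 5 for the members. When each summit counted only for the nearest 5' end, lin-53, cls-2, kle-2, hcp-6, smc-3 and emb-27 were no longer counted. All 5 members with a main peak still were. The summit at kle-2, -694 bp from its 5' end, lay nearer to that of another gene. The ranking of kle-2 above hcp-3 therefore rests on a peak that cannot be assigned to kle-2 alone. The motif TTTGAA was near the summit at 5 of the 12 (lin-53, kbp-4, kle-2, emb-27 and such-1) and TTCGCGC at 3 (kbp-4, cls-2 and rod-1). These TTTGAA matches began at -37 bp from the summit at lin-53, 41 bp at kbp-4, -39 and 35 bp at kle-2, -50 bp at emb-27 and -43 bp at such-1. Over main peaks in the window of a protein-coding gene, TTTGAA was in 23.2% and TTCGCGC in 6.7%, and no difference was tested.

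**Figure D5:**
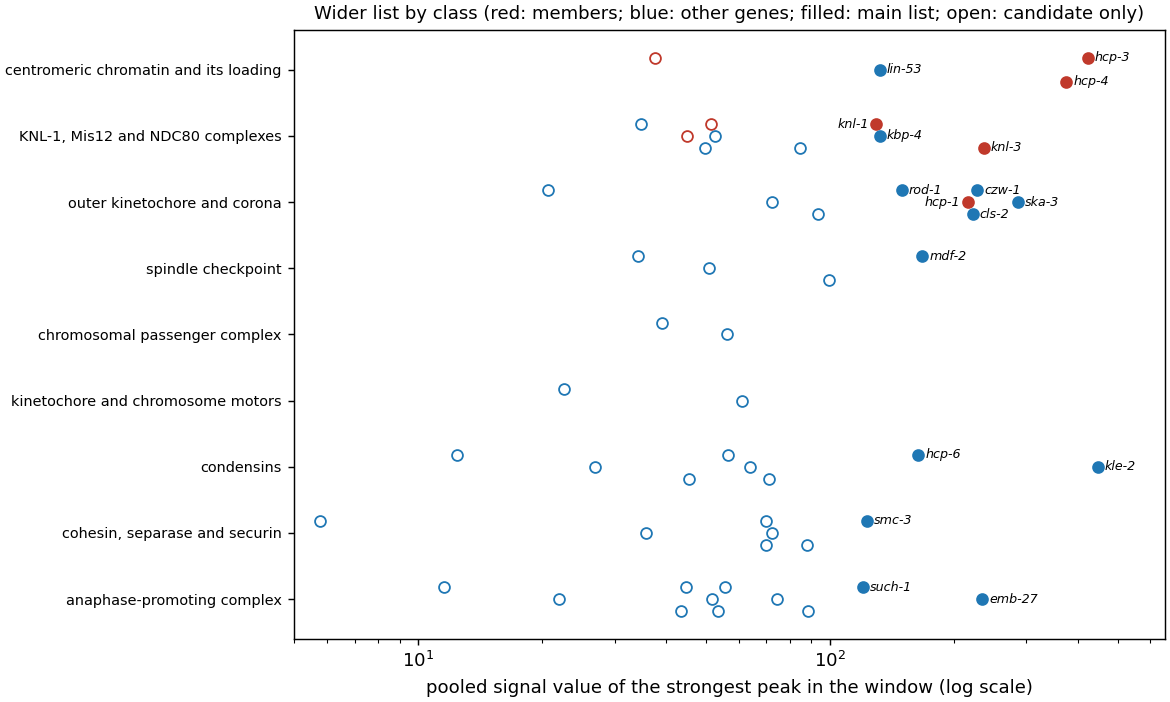
Pooled signal value (log scale) of the strongest window peak of each gene of the wider list, by group, with genes in the main list named. Filled points begin at 120.0 (such-1) and reach 446.8 (kle-2); open points are candidates only, up to 99.4, and 7 genes with no candidate in the window are not drawn.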

How the data were processed

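ChIP-seq was done on whole L4 larvae, in 2 biological replicates numbered in the labels, of sheared fragments of 200 to 800 bp. Per the file headers and the deposited list of files, the authors derived the peaks on build ce11 from filtered alignments and a control, for each replicate and for both together. Which software aligned reads and found peaks is not given in the sources used here. The authors' deposited lists hold, for every peak, a signal value whose scale is not stated, a score (830 or more in thresholded lists, which is an IDR of 0.01 or less) and a summit. In the deposited ranked lists a −log10 IDR is added. The main list stands unchanged within a ranked list of 93610 candidates; candidates here are those of the other pooled ranked list, 93476 peaks, which holds 2214 of the 2228. Replicate values are the strongest candidate of that replicate that overlaps the pooled peak by at least 1 bp.

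Genes came from Ensembl release 115 of WBcel235, the assembly of ce11, and sequence from its RefSeq genome. Python 3.11.15, numpy 2.4.6 and matplotlib 3.10.9 were used; assignment of summits was tested on simulated data. Depth is unknown and no read counts were used, so no interval is given. The members, the wider list (62 of 63 names matched) and the motifs were chosen with earlier results of these data known. Named genes were all members, wider list genes with a main window peak, genes sharing a member's peak, the next genes by signal and the tagged gene; other genes are named after their values were seen. Alternatives were other lists, windows and ways to assign a peak.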

Additional observations from a re-analysis of the deposited data

How the results depend on the processing

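The members' count of 5 was 4 or 5 when either replicate was left out and 4 in the stronger 50% of peaks, where knl-1 was lost as it was without replicate 1. With a window of 500 bp it was 3, since the summits of hcp-3 and hcp-4 lie beyond that distance. It was 5 under the other alternatives run. The wider list's count of 17 was 11 with a window of 500 bp and 11 when each summit counted only for the nearest 5' end. It was 12 to 15 without a replicate and 12 in the stronger 50% of peaks. With a window of 2000 bp it rose to 22, and with transcript 5' ends to 18. The share of all protein-coding genes, 6.13%, was 4.8% with a window of 500 bp, 4.03% to 4.3% without a replicate, 3.97% in the stronger 50% of peaks, 3.77% with the nearest 5' end only and 10% over genes with a candidate in the window. It was 8.2% with a window of 2000 bp, 6.76% with transcript 5' ends and 6.65% when any overlap of a peak with the window counted. Within a single replicate's list the members' percentages were lower than in the main list. Those lists are shorter, with 1358 peaks in replicate 1 and 1200 in replicate 2 against 2228, so the percentages are not directly comparable. They were, for hcp-3, above 84.5% to 90.9% (93.4% in the main list), hcp-4 above 81.5% to 87.6% (91.7%), knl-3 above 65.2% to 72.2% (83.3%), hcp-1 above 60.8% to 67.4% (80.6%), and knl-1, in replicate 1 only, above 44.5% (47.4%). No paired analysis was possible because there is 1 group. Depth limits are unknown.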

Other observations

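The 6-mers most gained at the centre of main peaks were rich in CG, and the members held them unequally. Over 1917 main peaks that were not the members' and not within 200 bp of a tRNA gene, ACGCGC was in 11.4% of stretches with 50 bases on each side of the summit and in 0.991% of equal stretches 300 bp away. CGCGCA followed with 10.9% against 1.25% and CGCGCC with 10.9% against 1.46%. Of the 10 6-mers with the largest gain, hcp-3 held 5, hcp-4 and knl-3 held 3 each, and knl-1 and hcp-1 held 1 each, while the candidates of knl-2, ndc-80 and him-10 held 0. At least 1 of the 10 was in 47.9% of the other main peaks and in 13.6% of their flanks. These 6-mers were chosen on the same peaks and after seeing the data, they overlap each other, and no test was made.

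The tagged gene Y48G9A.11 had 1 main summit in its window or body, a strongest candidate of 118.4 at 819 bp from its 5' end, and a strongest window candidate of 77.3.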
